A study of Homo sapiens with 15 samples.

Results

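The proteasome subunit genes are the 43 genes, of 18377 with a measured probe set, whose symbols start with PSMA, PSMB, PSMC, PSMD, PSME or PSMF, with pseudogenes left out. The rule reads the symbol and uses no measured value. Of the 43, 41 encode subunits, activators or regulators of the proteasome. The other 2 match the rule but encode no subunit: PSMC3IP encodes a recombination factor and PSME3IP1 a protein that binds the activator PSME3. PSMC5, PSMD7 and PSMD13 were not analysed here. The genes were read on 15 Affymetrix arrays of RNA from A549, an established human lung adenocarcinoma cell line, with 3 arrays, labelled as biological replicates, in each of 5 groups. All cultures held 0.1% DMSO as solvent. The normoxic vehicle cultures had DMSO alone, and the hypoxic vehicle cultures had DMSO and, 6 h later, 42 h of hypoxia. The remaining groups had 10 µM BB2-125, BB2-162 or BB2-282, and hypoxia was started in a gas-generating pouch 6 h later and lasted 42 h. The series title calls these coded compounds oligooxopiperazines, and they were made to act on signalling by the hypoxia-inducible factor. Cultures with a compound in normoxia were not analysed here.

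The proteasome degrades proteins that carry ubiquitin chains. Its 20S core is a barrel of stacked rings: the outer rings are built from PSMA genes and gate the entrance, and the inner rings are built from PSMB genes and hold the proteolytic sites. PSMB5, PSMB6 and PSMB7 encode the catalytic subunits of the standard core, and PSMB8, PSMB9 and PSMB10 encode the inducible subunits that replace them in the immunoproteasome. The 19S cap, from PSMC and PSMD genes, binds ubiquitin, removes it and unfolds the substrate with a ring of ATPases. PSME genes encode alternative activators that open the core. Subunit genes are often regulated together, through the transcription factor NFE2L1 acting at antioxidant response elements and through NF-Y acting at CCAAT boxes.

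The promoters of 4 members are shown, chosen because these members recur in the results. PSMB3 had the lowest p among the members in the comparison of BB2-125 with hypoxia alone, PSMB9 and PSME2 rose with it, and PSME3 had the largest fall in hypoxia. Each line gives the 250 bases before the annotated start on the strand of the gene, 5′ to 3′, from RefSeq on GRCh38.p14. The windows are chr17:38752491-38752740 on the plus strand for PSMB3, chr6:32853942-32854191 on the plus strand for PSMB9, chr14:24146611-24146860 on the minus strand for PSME2 and chr17:42833147-42833396 on the plus strand for PSME3. Capitals mark a match, on either strand, to TGACNNNGC (the core of the antioxidant response element), CCAAT (the NF-Y box), ACGTG or GCGTG (cores of the hypoxia response element) or the interferon-stimulated response element (GAAA, any 2 bases, GAAA), where N is any base.
PSMB3: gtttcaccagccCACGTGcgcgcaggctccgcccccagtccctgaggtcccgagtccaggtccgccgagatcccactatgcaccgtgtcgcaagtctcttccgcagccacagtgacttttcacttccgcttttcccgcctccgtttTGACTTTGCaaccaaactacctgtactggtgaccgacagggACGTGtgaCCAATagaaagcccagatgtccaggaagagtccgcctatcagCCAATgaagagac
PSMB9: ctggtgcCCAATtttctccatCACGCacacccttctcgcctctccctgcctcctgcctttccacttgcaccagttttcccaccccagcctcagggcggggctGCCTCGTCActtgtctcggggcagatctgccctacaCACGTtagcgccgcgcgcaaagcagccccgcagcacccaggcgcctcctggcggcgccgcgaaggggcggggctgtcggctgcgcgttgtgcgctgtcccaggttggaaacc
PSME2: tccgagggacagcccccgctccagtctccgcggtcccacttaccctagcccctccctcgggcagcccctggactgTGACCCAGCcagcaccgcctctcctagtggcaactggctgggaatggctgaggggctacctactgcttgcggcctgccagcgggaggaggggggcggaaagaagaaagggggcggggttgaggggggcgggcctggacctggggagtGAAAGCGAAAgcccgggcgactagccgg
PSME3: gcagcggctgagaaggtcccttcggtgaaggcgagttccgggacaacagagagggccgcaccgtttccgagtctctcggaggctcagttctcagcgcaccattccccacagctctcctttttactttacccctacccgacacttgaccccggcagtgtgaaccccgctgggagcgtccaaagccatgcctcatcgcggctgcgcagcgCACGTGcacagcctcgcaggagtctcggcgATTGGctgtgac

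The PSMB3 window holds TGACTTTGC, 2 CCAAT boxes and 3 matches to ACGTG, of which 2 are the same palindrome read on both strands. That of PSMB9 holds an antioxidant response element core on the opposite strand (TGACGAGGC) and a CCAAT box. It also holds 1 match to ACGTG and 1 to GCGTG, both on the opposite strand. That of PSME2 holds TGACCCAGC and GAAAGCGAAA, and that of PSME3 holds a CCAAT box on the opposite strand and the same palindrome as PSMB3. The motifs were also searched in the 300 bases from 250 before to 50 after the start, for the 38 members with a RefSeq promoter and for all 27305 promoters. TGACNNNGC was found in 11 of the 38 (28.9%) and in 13.6% of all promoters. CCAAT was found in 18 (47.4%) against 35.7%, and ACGTG or GCGTG in 21 (55.3%) against 48.4%. The interferon-stimulated response element was found in PSMA4, PSMB4, PSMB10, PSME1 and PSME2, or 13.2% of the 38, against 3.65%. These counts are a description of letters and say nothing of binding. The median hypoxic change was -0.45 on the log2 scale in the 11 members with TGACNNNGC and -0.54 in the 26 without it that were tested. With BB2-125 the medians were 0.21 with the motif and 0.36 without it. For CCAAT the hypoxic medians were -0.66 in 18 members with it and -0.43 in 19 without. With BB2-125 they were 0.41 and 0.24. For the interferon-stimulated response element the hypoxic medians were -0.02 in 5 members with it and -0.55 in 32 without. With BB2-125 they were 0.33 and 0.35. For ACGTG they were -0.33 and -0.66 in hypoxia and 0.30 and 0.39 with BB2-125. For GCGTG they were -0.44 and -0.66, then 0.35 and 0.33. None of these differences was tested.

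Levels below are log2 intensities, and a change is a difference of group means on that scale, given ± the standard error from limma with 3 arrays in each group. A gene was called higher or lower at a Benjamini-Hochberg adjusted p under 0.05 over the 16005 genes that passed the filter on dim signal. Of the 43 members 42 passed it. PSMA8, a testis form of an alpha subunit, read 2.82 to 3.08 over the 15 arrays and was not tested. PSMB11, the thymus subunit, read 4.48 to 5.43, close to the 25th percentile of the arrays (4.57 to 4.90), and was not called in any of the 7 comparisons. Intensities of different probe sets are not compared with each other. The p-values measure the spread between cultures that the labels call biological replicates and of which nothing more is known. In bulk RNA, fewer cells of a type and less RNA per cell cannot be told apart.

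Some facts of the series bear on these values. Median intensity per array ran from 74.9 to 84.6. BB2-162 replicate 1 stood farther from its group than any other array, with a root mean square deviation of 0.22 against 0.09 to 0.16. All 9 markers of A549 and lung epithelium lay above the 25th percentile on every array. In hypoxia 3 of these 9 rose and 4 fell, while 57.5% of all genes were called. KRT19 (1.42 ± 0.11) was among the rises. The falls were those of CDH1 (-1.53 ± 0.14), EPCAM (-1.32 ± 0.16), KRT18 (-0.73 ± 0.13) and KRT8 (-0.54 ± 0.10). The median change of the 9 was 0.18, with 5 positive and 4 negative. Their part in the results on the proteasome genes was not tested. The fibroblast markers DCN and LUM, the leukocyte markers PTPRC and LYZ and the endothelial marker EMCN lay above the 25th percentile on no array. In contrast, 3 of 5 fibroblast, 4 of 6 leukocyte and 4 of 8 endothelial markers lay above it on every array. Lying above that percentile was thus not particular to the markers of A549 and lung epithelium. The summed level of the 6 leukocyte markers measured was 9.34 to 9.43 in normoxia and 11.30 to 11.44 in the hypoxic vehicle, carried by the lysosomal gene CD68 (8.95 to 11.28 in the mean). The hypoxic vehicle arrays enter the hypoxia comparison and all 3 comparisons of a compound with hypoxia alone, so a stray reading there moves those values in opposite directions. The 3 pairs of compounds hold no vehicle array.

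The median level of the members was lower in hypoxia, near the normoxic level with BB2-125, and lowest with BB2-282. The median difference of the 42 members from their normoxic means was -0.26, -0.39 and -0.55 on the hypoxic vehicle arrays. With BB2-125 it was -0.06, 0.05 and 0.07. That value near 0 covers members on both sides of it. With BB2-125 the median of the constitutive beta genes was 0.11, 0.20 and 0.19 and that of the non-ATPase genes of the 19S cap -0.22, -0.32 and -0.36. Single members stayed far below normoxia, such as PSME3 with a mean of 8.58 against 10.98, PSMD5 with 7.39 against 8.78 and PSMA4 with 10.06 against 11.24. BB2-162 gave -0.20, -0.29 and -0.50, which overlapped the hypoxic vehicle. BB2-282 gave -0.77, -0.73 and -0.62, below every other array. The same median over all 16005 genes stayed between 0.00 and 0.15 on all 15 arrays.

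**Figure D1:**
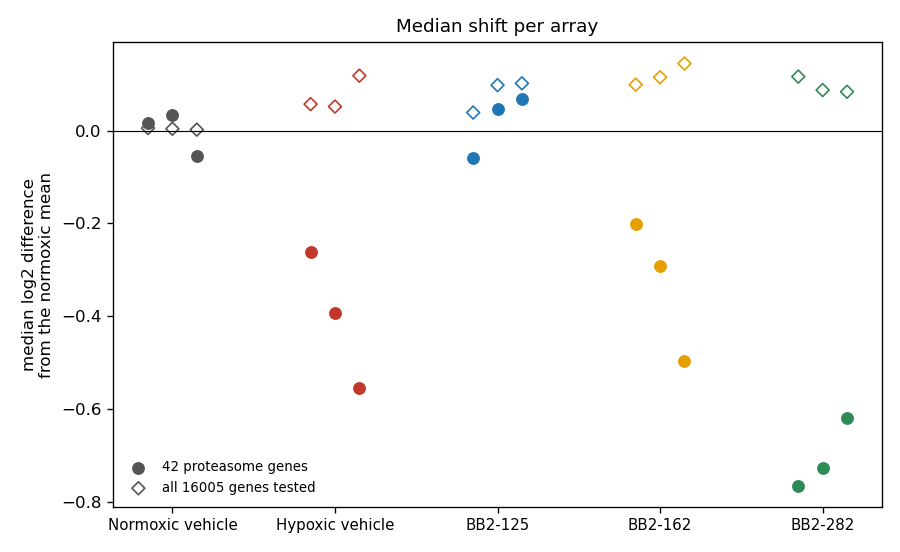
Median log2 difference from the normoxic group mean on each of the 15 arrays, for the 42 proteasome genes (filled circles) and for all 16005 genes tested (open diamonds), by group. The 3 BB2-125 arrays sit between -0.06 and 0.07, the hypoxic vehicle arrays between -0.55 and -0.26 and the BB2-282 arrays between -0.77 and -0.62, while the diamonds stay between 0.00 and 0.15.

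The normoxic mean was the highest of the 5 group means for 20 members and the BB2-125 mean for 18. The BB2-282 mean was the lowest for 23. Of the 42 members, 28 (66.7%) had group means in the order BB2-125, BB2-162, BB2-282 from high to low, an order found in 18.0% of all genes tested. Group means lay below the normoxic mean in 33 members for the hypoxic vehicle, 20 for BB2-125, 32 for BB2-162 and 34 for BB2-282.

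Hypoxia against normoxia asks how low oxygen changed the proteasome genes without a compound. Of the 42 members 21 fell and 1 rose, while 57.5% of all genes were called, 29.4% lower and 28.2% higher. The median change was -0.42, against 0.09 over all genes. Falls were spread over core and cap: 6 of 14 genes of the standard 20S core and 10 of 14 genes of the 19S cap. All 14 genes of the standard core had a mean below normoxia, whether or not they passed. In 24 members every hypoxic array lay below every normoxic one, and in 3 above, against 30.9% and 33.7% of all genes.

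Among the alpha ring genes, PSMA2, PSMA3 and PSMA4 fell and the other 4 tested did not pass. PSMA4 read 11.25, 11.22 and 11.23 in normoxia and 9.50, 9.42 and 8.80 in the hypoxic vehicle. Its fall of -1.99 ± 0.15 (adjusted p = 1.39e-09) was a 3.98-fold lower intensity with no overlap between the groups. PSMA3 read 9.52, 9.80 and 9.37 in normoxia and 8.56, 8.42 and 8.23 in hypoxia, again apart (-1.16 ± 0.16, adjusted p = 4.45e-06). PSMA2 fell by -0.66 ± 0.20 (adjusted p = 0.00833), a call that ended without hypoxic vehicle replicate 3 (adjusted p = 0.0628). The changes of the other 4 ran from -0.24 to -0.06.

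In the constitutive beta ring PSMB2, PSMB3 and PSMB6 fell. PSMB6, the caspase-like subunit, read 11.72, 11.78 and 11.40 in normoxia and 10.70, 10.39 and 10.54 in the hypoxic vehicle (-1.09 ± 0.13, adjusted p = 8.66e-07). The structural subunit PSMB3 read 11.40, 11.27 and 11.19 in normoxia and 10.38, 10.04 and 10.25 in hypoxia (-1.06 ± 0.11, adjusted p = 9.16e-08). PSMB2 read 10.84, 10.89 and 10.69, then 9.94, 9.64 and 9.88 (-0.99 ± 0.10, adjusted p = 1.33e-07). The other 2, PSMB1 (-0.14 ± 0.11) and PSMB4 (-0.02 ± 0.11), and the catalytic genes described next did not pass. In PSMB2, PSMB3 and PSMB6 every hypoxic array lay below every normoxic one, at close to a 2-fold lower intensity.

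The other catalytic genes of the standard core did not pass. PSMB5, the chymotrypsin-like subunit and the main target of proteasome inhibitor drugs, read 10.81, 10.80 and 10.78 in normoxia and 10.77, 10.64 and 10.22 in the hypoxic vehicle. The groups did not overlap, but the change of -0.25 ± 0.17 had an adjusted p of 0.208. PSMB7, the trypsin-like subunit, read 10.09, 10.15 and 9.97, then 10.16, 10.09 and 9.81, with overlapping arrays (-0.05 ± 0.10). Of the 3 genes of the active sites only PSMB6 was thus called in hypoxia; the differences between their changes were not tested.

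Of the inducible subunits, PSMB8 was the only member of the 42 called higher in hypoxia in this fit. It read 5.90, 6.00 and 6.01 in normoxia and 6.54, 6.19 and 6.21 in hypoxia (0.34 ± 0.11, adjusted p = 0.0155). That call ended after quantile normalization (adjusted p = 0.0528) and without normoxic vehicle replicate 1 (0.0514) or hypoxic vehicle replicate 1 (0.104). PSMB9 read 6.80, 7.05 and 6.82 in normoxia and 6.99, 6.71 and 6.89 in hypoxia. PSMB10 read 6.90, 6.70 and 6.50, then 6.85, 6.77 and 6.90. Both overlapped between groups, with changes of -0.03 ± 0.11 and 0.14 ± 0.11.

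**Figure D2:**
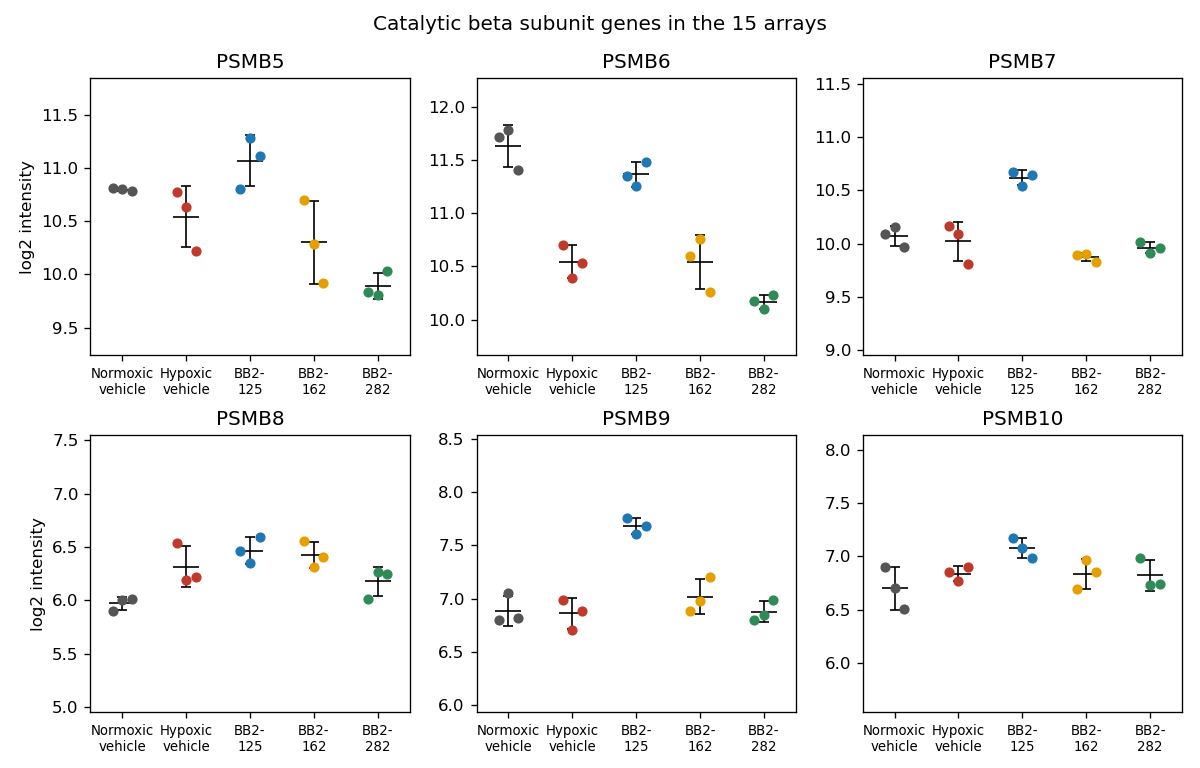
Log2 intensity of the catalytic subunit genes of the standard core (PSMB5, PSMB6, PSMB7) and of the immunoproteasome (PSMB8, PSMB9, PSMB10) on each array, by group, with the group mean and SD (n = 3); each panel has its own range. PSMB6 falls from 11.63 to 10.54 between the vehicle groups and stands at 11.36 with BB2-125, and PSMB9 stands at 7.68 with BB2-125 against 6.86 to 7.02 in the other groups.

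The 19S ATPases unfold substrates, and 4 of the 5 measured fell: PSMC1 (-0.70 ± 0.11), PSMC2, PSMC3 (-0.66 ± 0.10) and PSMC4. PSMC2 read 10.38, 10.36 and 10.25 in normoxia and 9.07, 8.98 and 8.85 in hypoxia, a clear gap (-1.36 ± 0.11, adjusted p = 4.9e-09). PSMC4 read 11.42, 11.34 and 11.42, then 10.41, 10.30 and 10.35 (-1.04 ± 0.13, adjusted p = 1.69e-06). The fifth, PSMC6, had a change of 0.21 ± 0.12. It has 2 probe sets, and it was called higher when they were averaged (0.30, adjusted p = 0.0373) and after quantile normalization (0.31, adjusted p = 0.0253).

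Of the 9 measured non-ATPase genes of the cap 6 fell. PSMD1, a scaffold of the base, read 9.78, 9.95 and 9.89 in normoxia and 7.82, 7.88 and 7.35 in the hypoxic vehicle. This was a 4.56-fold lower intensity with the groups far apart (-2.19 ± 0.17, adjusted p = 2.04e-09). PSMD2, the other large scaffold, read 8.88, 8.94 and 9.02, then 7.66, 7.64 and 7.59 (-1.31 ± 0.10, adjusted p = 1.54e-09). PSMD14 encodes the enzyme that cuts ubiquitin from the substrate and read 9.98, 9.97 and 9.97, then 9.07, 8.91 and 8.66 (-1.10 ± 0.14, adjusted p = 1.5e-06). PSMD11, a lid subunit, fell by the same amount (-1.10 ± 0.12), and PSMD6 (-0.82 ± 0.11) and PSMD12 (-0.43 ± 0.10) fell less. The ubiquitin receptor PSMD4 (0.27 ± 0.13) and PSMD3 (0.16 ± 0.10) had higher means and PSMD8 (-0.12 ± 0.11) a lower one, and none of these passed. PSMD4 was called higher with array weights (0.39, adjusted p = 0.012) and without hypoxic vehicle replicate 2 (0.42, adjusted p = 0.0087). PSMD3 was called higher after quantile normalization (0.23, adjusted p = 0.04).

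PSMD5, PSMD9 and PSMD10 encode chaperones that build the base of the cap. PSMD5 read 8.63, 8.80 and 8.90 in normoxia and 7.30, 7.35 and 6.90 in hypoxia, 3.02-fold lower (-1.60 ± 0.17, adjusted p = 1.67e-07). PSMD10 read 9.96, 9.91 and 10.00, then 9.71, 9.83 and 9.07; the arrays did not overlap, yet the spread in hypoxia left an adjusted p of 0.107 (-0.42 ± 0.22). PSMD9 had a change of -0.03 ± 0.15.

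The largest fall of any member was that of PSME3, which encodes PA28 gamma, an activator of the nuclear core. It read 10.95, 11.01 and 10.97 in normoxia and 8.32, 8.42 and 8.11 in the hypoxic vehicle, 6.47-fold lower (-2.69 ± 0.12, adjusted p = 1.19e-12). PSME2, which encodes PA28 beta and is induced by interferon gamma, read 8.93, 8.92 and 8.76, then 8.24, 8.14 and 8.04 (-0.73 ± 0.10, adjusted p = 2.66e-06). Both falls separated the groups completely. PSME1, the partner of PSME2 in the same ring, had a change of 0.14 ± 0.10 and did not pass. PSME4, a large single-chain activator, fell by -0.45 ± 0.17 (adjusted p = 0.0286), and that call ended in 5 of 16 alternatives with adjusted p-values up to 0.104. PSMF1, an inhibitor of the core, read 10.65, 10.66 and 10.71, then 10.83, 10.85 and 10.81 (0.15 ± 0.11, adjusted p = 0.256). Of the 2 genes that match the rule but encode no subunit, PSME3IP1 fell (8.81, 8.67 and 8.60, then 8.13, 7.97 and 7.87, -0.70 ± 0.13). PSMC3IP did not pass (6.22, 6.57 and 6.44, then 6.65, 6.32 and 6.78).

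**Figure D3:**
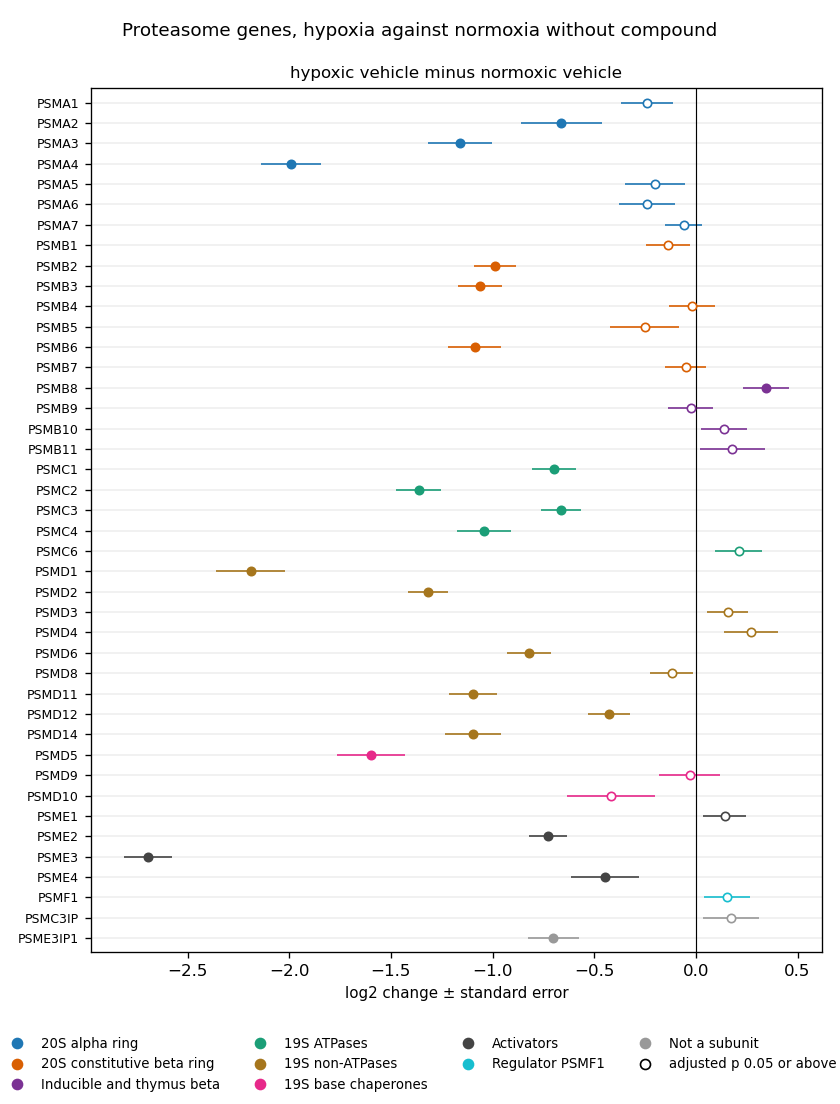
Log2 change of each of the 42 proteasome genes in the hypoxic against the normoxic vehicle, ± standard error (3 arrays in each group), coloured by role; filled points have an adjusted p under 0.05. PSME3 (-2.69), PSMD1 (-2.19) and PSMA4 (-1.99) lie farthest left, and PSMB8 (0.34) is the filled point on the right.

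BB2-125 moved the proteasome genes mostly upward against hypoxia alone. Of the 42 members 20 rose and 1 fell, while 28.4% of all genes were called, 13.3% higher and 15% lower. The median change was 0.32, against 0.02 over all genes. All 7 constitutive beta genes and all 5 measured ATPases rose, as did PSMA4, PSMA5 and PSMA6 of the alpha ring and PSMD1, PSMD11 and PSMD14 of the cap. The remaining rises were PSMB9 and PSME2. In 27 members every BB2-125 array lay above every hypoxic vehicle array, and in 1 below, against 20.9% and 20.4% of all genes.

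The member of lowest p was PSMB3. It read 11.51, 11.39 and 11.41 with BB2-125, against 10.38, 10.04 and 10.25 in the hypoxic vehicle and a normoxic mean of 11.29 ± 0.11 (SD, n = 3). Its rise of 1.21 ± 0.11 was 2.32-fold (adjusted p = 1.32e-07) and separated the groups. PSME2 read 9.03, 9.10 and 9.17, against 8.24, 8.14 and 8.04 (0.96 ± 0.10, adjusted p = 5.07e-07). PSMC2 read 9.96, 9.83 and 9.78, against 9.07, 8.98 and 8.85 (0.89 ± 0.11, adjusted p = 7.33e-06). PSMC2 with BB2-125 had a mean of 9.86, between the vehicle means of 8.97 in hypoxia and 10.33 in normoxia. Differences from normoxia were not tested.

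All 3 standard catalytic genes rose. PSMB6 read 11.35, 11.26 and 11.48 (0.82 ± 0.13, adjusted p = 9.19e-05). PSMB7, which hypoxia had not moved past the threshold, read 10.68, 10.54 and 10.64, above all arrays of both vehicle groups (0.60 ± 0.10, adjusted p = 0.000157). PSMB5 read 10.81, 11.28 and 11.11, just above the hypoxic vehicle arrays (0.52 ± 0.17, adjusted p = 0.0265). That call ended after median centring of the arrays and without hypoxic vehicle replicate 3, BB2-125 replicate 2 or BB2-125 replicate 3 (adjusted p = 0.0559 to 0.149).

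Among the inducible subunits the rise was that of PSMB9 alone in this fit. It read 7.76, 7.60 and 7.68 with BB2-125, above all other arrays of the series, and rose by 0.82 ± 0.11 (adjusted p = 1.78e-05). PSMB8 read 6.46, 6.35 and 6.59 (0.15 ± 0.11, adjusted p = 0.38) and overlapped the hypoxic vehicle. PSMB10 read 7.17, 7.08 and 6.99, above the 3 hypoxic vehicle arrays, but did not pass (0.24 ± 0.11, adjusted p = 0.139). Whether PSMB9 differed from PSMB8 and PSMB10 in its response was not tested.

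In the 19S cap PSMD14 read 9.77, 9.91 and 9.93 (0.99 ± 0.14, adjusted p = 2.25e-05) and PSMC4 read 11.07, 11.52 and 11.28 (0.94 ± 0.13, adjusted p = 2.55e-05). PSMD1 read 8.43, 8.64 and 8.40 and rose by 0.81 ± 0.17, to a mean of 8.49 that was still well under its normoxic mean of 9.87. PSMC1 (0.66 ± 0.11), PSMC3 (0.52 ± 0.10), PSMD11 (0.47 ± 0.12) and PSMC6 (0.42 ± 0.12) rose by less. In the alpha ring PSMA4 read 9.90, 10.17 and 10.11 (0.81 ± 0.15), and PSMA6 (0.70 ± 0.14) and PSMA5 (0.56 ± 0.15) rose as well. PSMA3 read 8.95, 8.89 and 8.65, above the hypoxic vehicle, with an adjusted p of 0.0524 (0.43 ± 0.16). With the replicate number as a block it was called (adjusted p = 0.0354).

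Some members that fell in hypoxia were not called with BB2-125. PSME3 read 8.60, 8.60 and 8.54 with BB2-125, above every hypoxic vehicle array, but its change of 0.30 ± 0.12 did not pass (adjusted p = 0.0733). It was called higher after quantile normalization (0.33, adjusted p = 0.0232) and with array weights (0.26, adjusted p = 0.0246). PSMD2 read 7.92, 7.87 and 7.74, also above every hypoxic vehicle array (0.21 ± 0.10, adjusted p = 0.128). PSMD5 read 7.40, 7.52 and 7.26 and overlapped the hypoxic vehicle (0.21 ± 0.17, adjusted p = 0.416). PSME4 was the member called lower (8.20, 8.52 and 8.21, against 8.71, 8.92 and 8.68, -0.46 ± 0.17, adjusted p = 0.0474). That call ended in 9 of 16 alternatives, with the replicate block among them (adjusted p = 0.0669) and values up to 0.168. Of the 21 calls 14 held in all 16 alternatives. PSMB1 (0.31 ± 0.11) and PSMB4 (0.33 ± 0.11) lost theirs in 8 and 7, PSMA5 without BB2-125 replicate 1 (adjusted p = 0.056), and PSMB2 (adjusted p = 0.0528) and PSMC6 (adjusted p = 0.052) without hypoxic vehicle replicate 2.

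BB2-162 against the hypoxic vehicle gave fewer changes in these genes. Of the 42 members 8 rose and 3 fell (26.2%), while 36.1% of all genes were called, 15.7% higher and 20.4% lower. The median change was 0.03, against 0.06 over all genes, and its sign was not stable. It was -0.04 after median centring, -0.05 with array weights, 0.08 after quantile normalization, -0.01 without hypoxic vehicle replicate 3 and 0.13 without BB2-162 replicate 3. It was 0.10 without hypoxic vehicle replicate 1, 0.06 without hypoxic vehicle replicate 2 and 0.0036 without BB2-162 replicate 1. The rises were in PSMC1, PSMC4, PSMD11, PSMD12 and PSMD14 of the cap, PSMB3 and PSMB4 of the core and PSME2. Median centring of the arrays gave 5 rises and 5 falls, and with it 28.2% of the calls over all genes were rises, in place of 43.4%. In 11 members the BB2-162 arrays lay wholly above the hypoxic vehicle, and in 2 below, against 19.8% and 20.5% of all genes.

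PSMC4, an ATPase of the cap, had the lowest p. It read 11.69, 11.17 and 11.21 with BB2-162, against 10.41, 10.30 and 10.35, a rise with no overlap (1.001 ± 0.13, adjusted p = 1.29e-05). PSMB3 read 10.90, 11.06 and 10.75 (0.68 ± 0.11, adjusted p = 9.2e-05). PSMD14 read 9.92, 9.52 and 9.28 (0.69 ± 0.14, adjusted p = 0.000769), above the hypoxic vehicle although its own arrays were spread. PSMD12 rose by 0.40 ± 0.10 (adjusted p = 0.00645). These 4 calls held in all 16 alternatives. The other 7 did not: PSMD11 (0.42 ± 0.12) missed the threshold in a fit of these groups alone, and PSMB4, PSMC1, PSME2, PSMD4, PSME4 and PSME3IP1 missed it in 4 to 8 alternatives each.

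The catalytic genes overlapped the hypoxic vehicle with BB2-162. PSMB5 read 10.70, 10.28 and 9.92 (-0.24 ± 0.17), PSMB6 10.60, 10.76 and 10.26 (-0.01 ± 0.13) and PSMB7 9.89, 9.90 and 9.83 (-0.15 ± 0.10). Of the inducible genes, PSMB8 read 6.56, 6.31 and 6.41, PSMB9 6.88, 6.98 and 7.20 and PSMB10 6.69, 6.97 and 6.85. None of these 6 passed, with adjusted p-values from 0.249 to 0.996. PSMB5 was called lower without BB2-162 replicate 1 (-0.44, adjusted p = 0.0297) and with array weights (-0.46, adjusted p = 0.0224). Limma called 0 of the 7 alpha ring genes, with 1 at an unadjusted p under 0.05; the change of largest size was that of PSMA6 (0.32 ± 0.14, adjusted p = 0.0707). BB2-162 replicate 1 read highest of its group in PSMB5, PSMC4, PSMD14 and PSMD10. Without it 6 members were called lower in place of 3, and without BB2-162 replicate 2 or 3, or hypoxic vehicle replicate 1, none was.

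With BB2-282 the members called were nearly all lower than in hypoxia alone. Of the 42 members 11 fell and 1 rose (28.6%), while 13.6% of all genes were called, 7.94% lower and 5.65% higher. The median change was -0.13, against 0.02 over all genes. Without hypoxic vehicle replicate 1 it was -0.06. The falls were in PSMA1, PSMA2, PSMA4 and PSMA6 of the alpha ring, PSMB3 and PSMB5 of the beta ring, PSMC4, PSMD8, PSME1 and PSME3, besides PSME3IP1. In 13 members the BB2-282 arrays lay wholly below the hypoxic vehicle, and in 1 above, against 16.7% and 14.7% of all genes.

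Alpha ring genes led by size. PSMA2 read 9.08, 8.93 and 9.52 with BB2-282, against 10.41, 10.56 and 9.90 in the hypoxic vehicle and 10.95, 10.93 and 10.96 in normoxia. The fall of -1.11 ± 0.20 (adjusted p = 0.000992) was 2.16-fold and left no overlap. PSMA1 read 9.87, 9.74 and 9.99, against 10.64, 10.72 and 10.39 (-0.72 ± 0.13, adjusted p = 0.00101). PSMA4 read 8.43, 8.33 and 8.53, against 9.50, 9.42 and 8.80 (-0.81 ± 0.15, adjusted p = 0.00116). PSMA4 thus had a mean of 8.43, against 11.24 in normoxia.

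PSMB5 read 9.84, 9.81 and 10.03, below all arrays of both vehicle groups (-0.65 ± 0.17, adjusted p = 0.0152). PSMB3 read 9.83, 9.75 and 9.85 (-0.42 ± 0.11, adjusted p = 0.0136). PSMB6 read 10.17, 10.10 and 10.23, below the hypoxic vehicle, and did not pass (-0.38 ± 0.13, adjusted p = 0.0635). PSMB7 read 10.02, 9.92 and 9.96, PSMB8 6.02, 6.27 and 6.25, PSMB9 6.80, 6.84 and 6.99 and PSMB10 6.99, 6.73 and 6.74. These last 4 overlapped the hypoxic vehicle, with changes between -0.14 and 0.02.

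Outside the core, PSMC4 read 9.92, 9.77 and 9.96 (-0.47 ± 0.13, adjusted p = 0.0226), and PSMD8, a lid subunit, fell by -0.55 ± 0.11 (adjusted p = 0.00182). PSME3 read 7.72, 7.76 and 7.95 (-0.47 ± 0.12, adjusted p = 0.0123), and PSME1 fell by -0.43 ± 0.10 (adjusted p = 0.0101). The rise was that of PSMD2, which read 8.10, 8.09 and 7.97 (0.42 ± 0.10, adjusted p = 0.00741), against 7.66, 7.64 and 7.59. PSME2, which had risen with the other compounds, read 8.08, 7.95 and 8.08 and did not pass (-0.11 ± 0.10). The calls that held in all 16 alternatives were the 5 of PSMA1, PSMA2, PSMA4, PSMD8 and PSMD2. The count of falls was 4 without hypoxic vehicle replicate 1 and 6 without hypoxic vehicle replicate 2, BB2-282 replicate 1 or BB2-282 replicate 2.

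**Figure D4:**
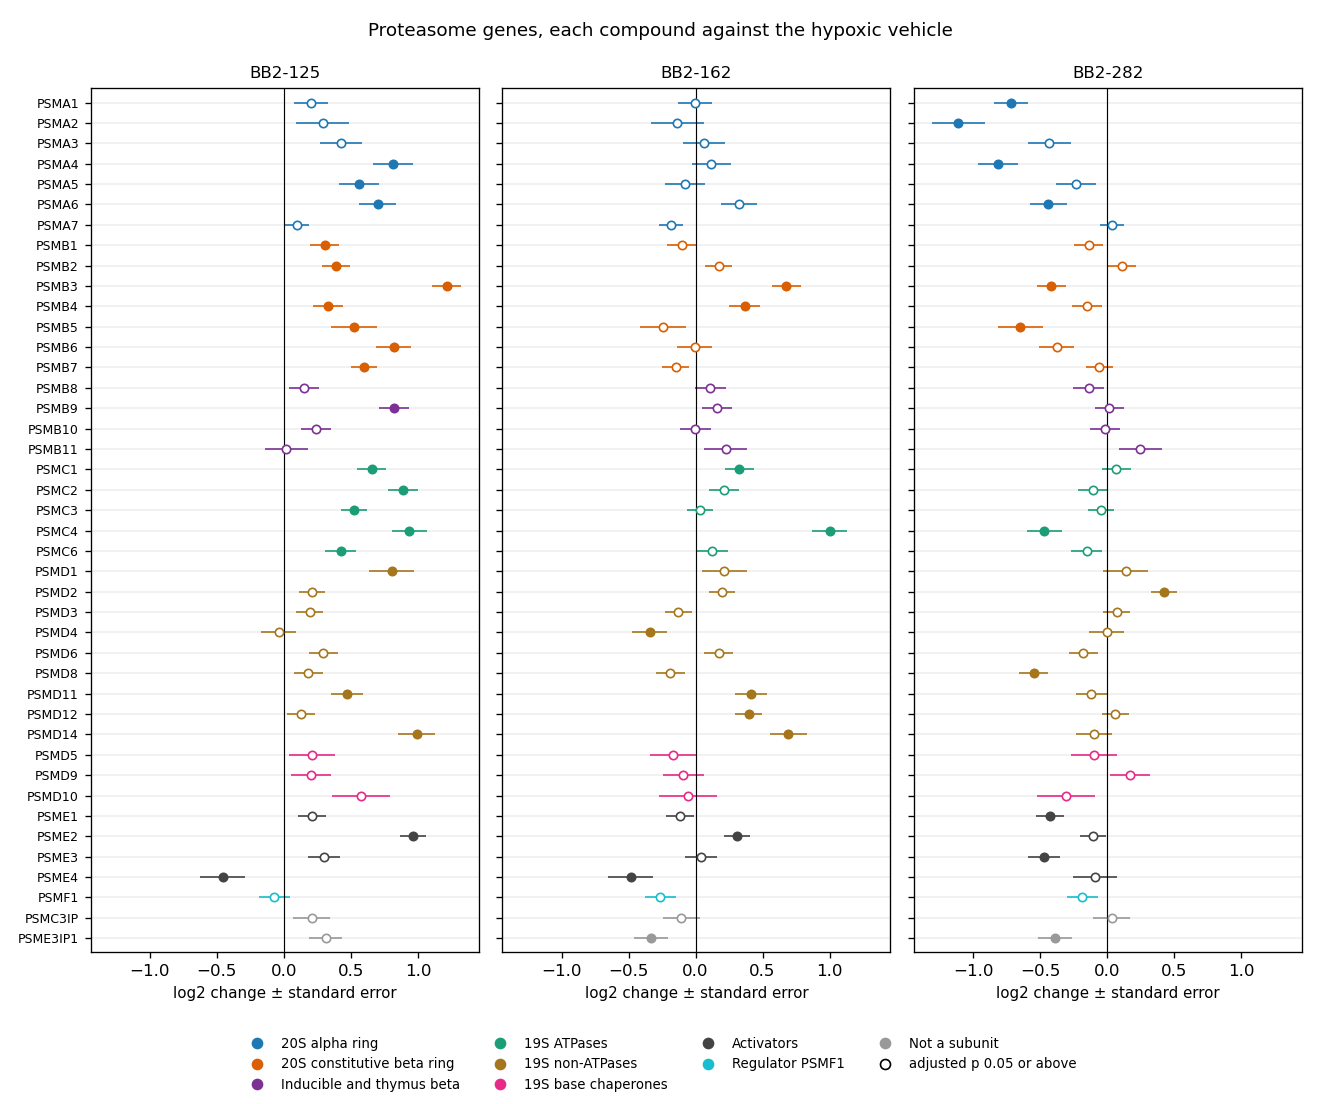
Log2 change of each of the 42 proteasome genes with BB2-125, BB2-162 or BB2-282 against the hypoxic vehicle, ± standard error (3 arrays in each group), coloured by role; filled points have an adjusted p under 0.05. All 7 constitutive beta genes and 5 ATPases are filled and to the right of 0 with BB2-125, where PSMB3 reaches 1.21, and 4 alpha genes are filled and to the left with BB2-282, where PSMA2 reaches -1.11; the panels share the hypoxic vehicle arrays.

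The compounds were then compared with each other at the same dose and time, in 3 pairs. BB2-125 against BB2-282 gave the widest difference. Of the 42 members 29 were higher with BB2-125 and none was lower by limma, with 2 (PSMD2 and PSME4) lower at an unadjusted p under 0.05. Of all genes 36.3% were called, 18.7% higher and 17.6% lower. The median difference was 0.61, against 0.01 over all genes. It covered 13 of 14 genes of the standard core, all 5 ATPases, 5 of 9 other cap genes and 3 of 4 activators. The arrays of the 2 compounds lay wholly apart upward in 34 members and downward in 1, against 26.3% higher and 24.9% lower of all genes.

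PSMB3 was 3.10-fold higher with BB2-125, a difference of 1.63 with a 95% interval of 1.41 to 1.86 (adjusted p = 2.55e-09). PSME2 differed by 1.07 (0.87 to 1.27, adjusted p = 8.29e-08) and PSMA4 by 1.63 (1.32 to 1.94, adjusted p = 1.06e-07). Among the catalytic genes the differences were 1.20 for PSMB6 (0.92 to 1.47), 1.17 for PSMB5 (0.81 to 1.53), 0.80 for PSMB9 (0.57 to 1.04) and 0.66 for PSMB7 (0.45 to 0.87). PSMB8 (0.29, 0.05 to 0.53, adjusted p = 0.0543) and PSMB10 (0.26, 0.02 to 0.50, adjusted p = 0.0918) did not pass. Of the 29 calls 28 held in all 16 alternatives, and PSMB2 (0.28, 0.06 to 0.49) lost its call in 7. PSMA7 (0.06, -0.13 to 0.25), PSMD12 (0.07, -0.15 to 0.28) and PSMD4 (-0.03, -0.31 to 0.24) had intervals that held 0 and reached at most 0.31 either way.

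BB2-125 against BB2-162 gave 19 members higher with BB2-125 and none lower by limma, with 1 (PSMD12) lower at an unadjusted p under 0.05. Of all genes 26.1% were called, 16.7% higher and 9.43% lower. The median difference was 0.32, against -0.05 over all genes, and after median centring 74.4% of the calls over all genes were higher, in place of 63.9%. The arrays lay wholly apart upward in 23 members and downward in 1, against 19.6% and 17.1% of all genes. PSMB7 differed by 0.75 (95% interval 0.54 to 0.96, adjusted p = 3.46e-05), PSME2 by 0.65 (0.45 to 0.85, adjusted p = 7.75e-05) and PSMB6 by 0.82 (0.55 to 1.10, adjusted p = 0.000156). PSMB5 (0.77, 0.41 to 1.12), PSMC2 (0.67, 0.44 to 0.91) and PSMB9 (0.66, 0.43 to 0.90) were higher too. PSMC4 (-0.06, -0.34 to 0.21), PSMB4 (-0.04, -0.28 to 0.20), PSMD11 (0.06, -0.19 to 0.30) and PSMD2 (0.02, -0.19 to 0.22) had intervals around 0. Of the 19 calls 11 held in all 16 alternatives. The count of higher members was 13 after quantile normalization, with 1 lower, and 11 without BB2-162 replicate 3.

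BB2-162 against BB2-282 gave 18 members higher with BB2-162 and none lower by limma, with 4 (PSMA7, PSMD2, PSMD4 and PSME4) lower at an unadjusted p under 0.05. Of all genes 35.8% were called, 15.6% higher and 20.3% lower. The median difference was 0.26, against 0.06 over all genes, and after median centring 32.9% of the calls over all genes were higher, in place of 43.4%, with 12 members higher and 3 lower. The arrays lay wholly apart upward in 19 members and downward in 4, against 22.4% and 22.5% of all genes. PSMC4 differed by 1.47 (95% interval 1.19 to 1.75, adjusted p = 1.2e-07), PSMB3 by 1.09 (0.87 to 1.32, adjusted p = 3.48e-07) and PSMA4 by 0.93 (0.62 to 1.24, adjusted p = 7.67e-05). PSMA2 (0.98, 0.56 to 1.39), PSMD14 (0.79, 0.50 to 1.08), PSMA6 (0.76, 0.48 to 1.05) and PSMA1 (0.72, 0.45 to 0.99) were higher with BB2-162. PSMB7 (-0.09, -0.30 to 0.12), PSMB9 (0.14, -0.09 to 0.38) and PSMB5 (0.41, 0.05 to 0.76, adjusted p = 0.0713) did not pass. Of the 18 calls 11 held in all 16 alternatives. A p that misses the threshold does not show that the compounds act alike on these genes.

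**Figure D5:**
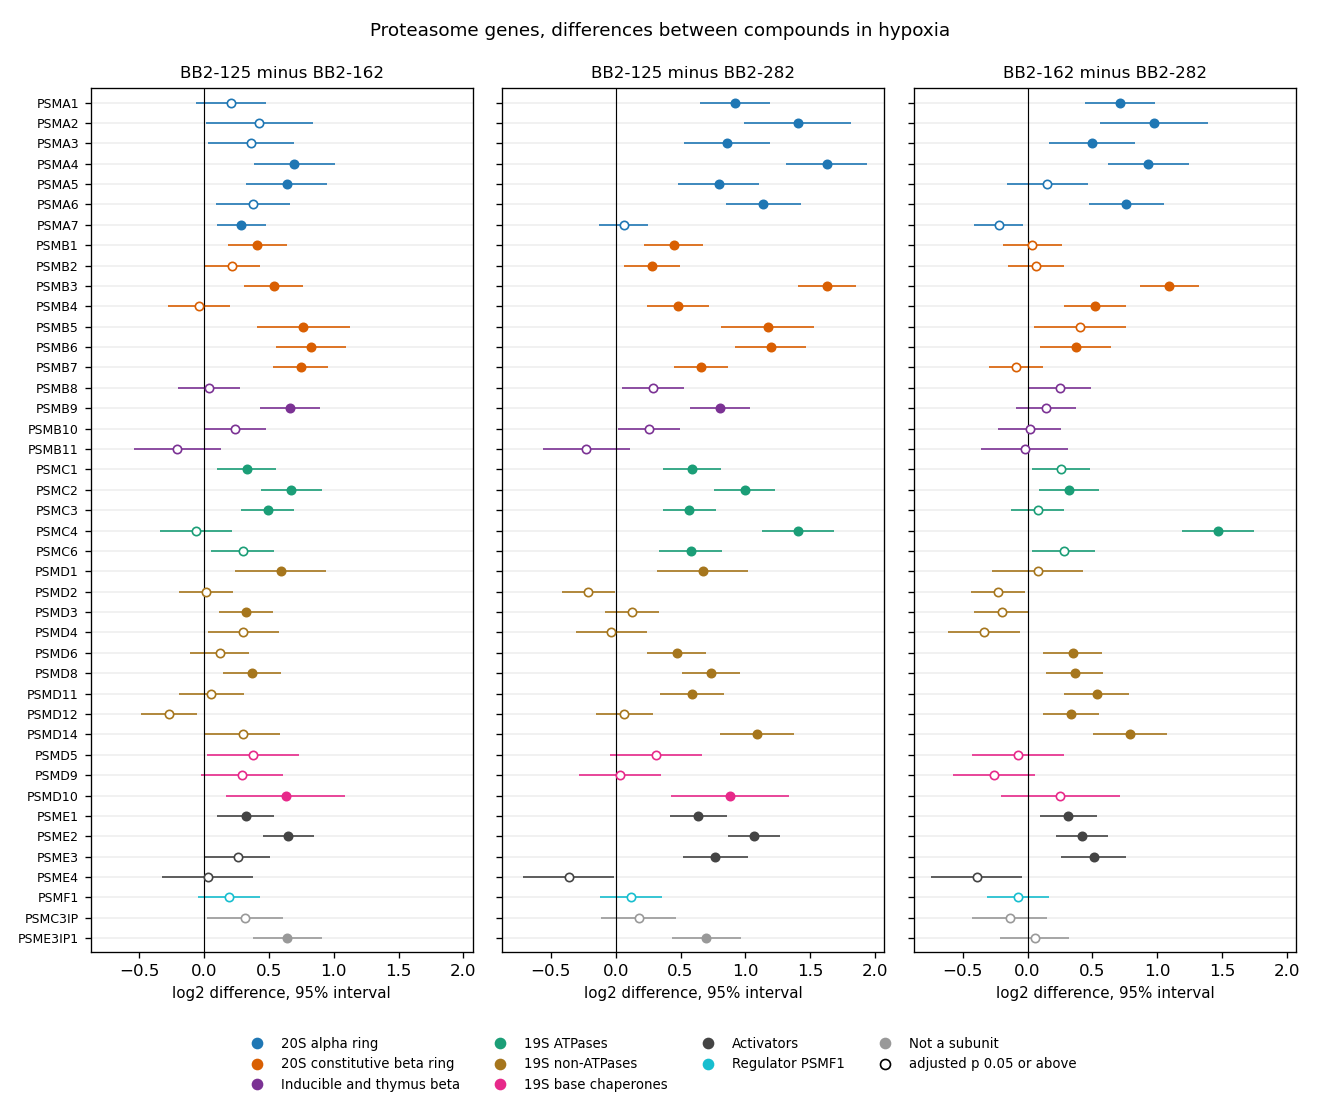
Log2 difference of each of the 42 proteasome genes between pairs of compounds in hypoxia, with 95% intervals (3 arrays in each group), coloured by role; filled points have an adjusted p under 0.05. Filled points lie to the right of 0 in all 3 panels, 19, 29 and 18 in number, with PSMB3 (1.63) and PSMA4 (1.63) farthest right for BB2-125 minus BB2-282 and PSMC4 (1.47) for BB2-162 minus BB2-282.

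Factors that assemble the proteasome or bind to it moved in both directions. Of 16 tested, 8 fell and 2 rose in hypoxia, where 57.5% of all genes were called. The 4 of lowest p were ZFAND2A (1.48 ± 0.10), a stress-induced proteasome-binding protein, ZFAND5 (-1.12 ± 0.11), an activator of the 26S particle, PSMG1 (-0.77 ± 0.10), a chaperone of the alpha ring, and PAAF1 (-0.80 ± 0.12), which binds free ATPase assemblies. With BB2-125, 5 rose and 3 fell against the hypoxic vehicle (28.4% of all genes were called). They included PSMG3 (0.97 ± 0.11), a chaperone of core assembly, ADRM1 (0.51 ± 0.10), the ubiquitin receptor of the cap, ZFAND5 (0.57 ± 0.11) and AKIRIN2 (-0.51 ± 0.11), which brings proteasomes into the nucleus. BB2-162 gave 5 rises and 6 falls (36.1% of all genes), led by ZFAND5 (0.76 ± 0.11), PAAF1 (-0.58 ± 0.12), the ubiquitin ligase UBE3C (-0.58 ± 0.13) and AKIRIN2 (-0.44 ± 0.11). BB2-282 gave 5 falls, with 13.6% of all genes called. The 4 of lowest p were POMP (-0.81 ± 0.09), the maturation protein of the core, PSMG3 (-0.55 ± 0.11), PSMG2 (-0.58 ± 0.13), the partner of PSMG1, and ZFAND2A (-0.34 ± 0.10). Between BB2-125 and BB2-282, 8 were higher with BB2-125 and 3 lower (36.3% of all genes), with PSMG3 at 1.52 ± 0.11 and POMP at 1.01 ± 0.09.

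Of 13 listed regulators of proteasome genes, 12 were tested. Of these 12, 5 fell and 2 rose in hypoxia, a share near the 57.5% of all genes called. NGLY1, which removes sugars from NFE2L1 and so permits its activity, rose by 2.01 ± 0.10 (adjusted p = 9.31e-12), whereas VCP, the ATPase that extracts proteins from the endoplasmic reticulum membrane, fell by -1.34 ± 0.14. Its cofactors NPLOC4 (-1.10 ± 0.15) and FAF2 (-0.49 ± 0.09) fell too. The other falls called in hypoxia were those of NFE2L2 and of NFYB, a gene of an NF-Y subunit. With BB2-125 the NF-Y subunit genes NFYB (0.83 ± 0.15) and NFYC (0.46 ± 0.12) and the VCP cofactor UFD1 (0.40 ± 0.13) rose, and NGLY1 fell (-0.49 ± 0.10), 4 of 12 against 28.4% of all genes. BB2-162 gave 2 falls, NGLY1 (-0.97 ± 0.10) and FAF1 (-0.41 ± 0.12), and 2 rises, FAF2 (0.31 ± 0.09) and NFYA (0.52 ± 0.16), against 36.1% of all genes. With BB2-282 FAF1 (-0.48 ± 0.12) and UFD1 (-0.50 ± 0.13) fell, against 13.6% of all genes. NFE2L1 itself is named here although it was not among the 4 of lowest p in any of these comparisons. It did not pass in hypoxia (-0.19 ± 0.10, adjusted p = 0.132), with BB2-125 (0.22 ± 0.10, adjusted p = 0.141), with BB2-162 (0.03 ± 0.10) or with BB2-282 (0.02 ± 0.10).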

How the data were processed

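RNA of A549 cells was read on 15 Affymetrix arrays. The intensity of each probe set was deposited as a linear value, made with RMA per the submitters' processing notes. The RMA software, its version and the genome build are not given in the sources used here. RMA normalizes arrays to each other, so a shift shared by all genes is not seen. The log2 was taken here. Of 28869 probe sets 19310 had 1 gene symbol in the platform annotation, 1752 had several and 7807 were unnamed. Of several probe sets of a gene, that of highest mean stood for it, as in 4 members. A gene was kept if at least 3 arrays read it above their own 25th percentile, and 2372 were not. The number of arrays limits the precision.

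The test was that of limma 3.58.1 (R 4.3.3), from 1 fit of group means over the 15 arrays (10 residual and 7.96 prior degrees of freedom), with Benjamini-Hochberg adjustment over the 16005 genes of each of 7 comparisons. The fit was run on simulated data with independent normal noise and few changed genes. Many genes changed on the real arrays, so that run does not show how the fit performs on them. Members, gene lists and the rule for named genes were chosen with earlier results of these data known. Values on every array are given for the 6 catalytic genes, for the 2 members of lowest p in each role in hypoxia and for the 3 of lowest p in each other comparison, and other members are named where they were called or bear on a group. Of other lists up to 4 of lowest p per comparison are named, besides NFE2L1 and the other falls among the regulators in hypoxia. No 2 arrays were identical. The labels do not say that a replicate number is shared between groups. Deviations from group means correlated at 0.19 to 0.33 between arrays of like number in hypoxic vehicle and BB2-125. This was the only pair of groups with every such correlation above the limit of 0.1. Over the 10 pairs of groups the correlations ran from -0.43 to 0.58. The replicate block among the alternatives fits the replicate number across all 5 groups. Alternatives were 2 scalings, 2 filters, averaged probe sets, 2 variance priors, a fit of 2 groups alone, a replicate block, array weights and leaving out each array in turn. No protein sequences were used.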

Additional observations from a re-analysis of the deposited data

How the results depend on the processing

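Each comparison was recomputed under 16 alternatives, and no called member turned its sign in any, although the median with BB2-162 did. Of 22 hypoxia calls 19 held in all of them, of 21 with BB2-125 14, of 11 with BB2-162 4 and of 12 with BB2-282 5. Between compounds 28 of 29 calls held for BB2-125 against BB2-282. For BB2-125 against BB2-162 11 of 19 held, and for BB2-162 against BB2-282 11 of 18. Leaving out 1 array in turn moved the hypoxic median change between -0.46 and -0.31 and its count of rises between 0 and 2. The median change ran from -0.01 to 0.13 with BB2-162 and from -0.18 to -0.06 with BB2-282. It moved the falls with BB2-125 between 0 and 1, with BB2-162 between 0 and 6 and with BB2-282 between 4 and 10, and all genes called with BB2-282 between 1219 and 2395. Members higher with BB2-125 than with BB2-162 ran from 11 to 27 (all genes called 2645 to 6203), and members lower with BB2-162 than with BB2-282 from 0 to 3. Rises in hypoxia numbered 2 after quantile normalization or averaged probe sets and 3 with array weights. Falls with BB2-125 numbered 0 after quantile normalization, median centring, no dim filter or the replicate block, which left 21 rises in that comparison and changed no other count by over 1.5 times. With BB2-162, rises numbered 5 after centring and 4 in a fit of the 2 groups alone, where all genes called were 3494. Falls numbered 1 after quantile normalization or no filter, 5 after centring, 0 in the fit of 2 groups and 7 with array weights. Array weights called 4193 genes with BB2-282. Members lower with BB2-125 than with BB2-162 numbered 1 after quantile normalization, and the fit of 2 groups called 2582 of all genes there. Members lower with BB2-125 than with BB2-282 numbered 1 in the fit of 2 groups and 2 with array weights. Members lower with BB2-162 than with BB2-282 numbered 1 after quantile normalization or in the fit of 2 groups, 3 after centring, 2 with a stricter filter and 4 with array weights. The cause of these shifts was not tested. With 3 arrays in each group small changes, and any in PSMA8 or PSMB11 near background, could not be resolved.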

Other observations

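Genes that load peptides from the proteasome onto antigen-presenting molecules, listed here with the transcription factor genes IRF1 and IRF9, did not follow 1 direction. Of 16 listed, 10 had a probe set with 1 gene symbol and 9 were tested. Of these 9, 4 fell and 2 rose in hypoxia, where 57.5% of all genes were called. The 4 of lowest p were TAP1 (1.25 ± 0.10), a subunit of the peptide transporter whose gene lies beside PSMB9, the chaperones CALR (-0.97 ± 0.10) and TAPBP (-0.72 ± 0.14), and the transcription factor gene IRF1 (0.53 ± 0.13). With BB2-125, 4 rose and 1 fell against the hypoxic vehicle (28.4% of all genes were called): CALR (0.30 ± 0.10), TAP1 (0.30 ± 0.10) and TAP2 (0.38 ± 0.13), each by less than PSMB9, were among the rises, and IRF9 fell (-0.61 ± 0.13, adjusted p = 0.00109). With BB2-162, 1 rose and 4 fell (36.1% of all genes); the call of lowest p was the rise of IRF1 (1.09 ± 0.13), while ERAP1 (-0.51 ± 0.12), IRF9 (-0.57 ± 0.13) and TAPBP (-0.53 ± 0.14) fell. With BB2-282, IRF1 (0.83 ± 0.13), TAP1 (0.45 ± 0.10) and TAPBP (0.49 ± 0.14) rose, 3 of 9 against 13.6% of all genes. Whether TAP1 and PSMB9 differed in their changes was not tested.

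Of 13 listed genes for ubiquitin, its activating enzymes and shuttle proteins, 8 had a probe set with 1 gene symbol and were tested. Of these 8, 3 fell and 1 rose in hypoxia, a share near the 57.5% of all genes called. The activating enzyme UBA1 (-0.77 ± 0.15), the shuttle protein UBQLN2 (-0.53 ± 0.13) and the ubiquitin gene UBB (-0.27 ± 0.08) fell, and UBA6 (0.38 ± 0.15) rose. With BB2-125 UBA6 (-0.99 ± 0.15) and UBA1 (-0.55 ± 0.15) fell and UBB (0.43 ± 0.08) rose against the hypoxic vehicle, 3 of 8 against 28.4% of all genes. With BB2-162 UBA6 (-0.40 ± 0.15) and UBA1 (-0.59 ± 0.15) fell and UBB (0.24 ± 0.08) rose against the same arrays, 3 of 8 against 36.1% of all genes. With BB2-282 limma called 0 of the 8, against 13.6% of all genes, and 0 had an unadjusted p under 0.05.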
